A study of Mus musculus with 38 samples.

Results

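The transcripts of 46 mouse genes that make or regulate the lysosome were followed through 38 RNA-sequencing libraries of microglia, glioma cells and macrophages. The genes were chosen by symbol, and each symbol matched 1 of the 55487 Ensembl gene identifiers in the count tables. They comprise 11 proteases, 7 enzymes of glycosaminoglycan breakdown, 7 enzymes that act on glycogen and glycoprotein sugars, 11 enzymes and cofactors for sphingolipids and other lipids, 7 membrane and transport proteins, and the 3 transcription factors Tfeb, Tfe3 and Mitf. All 46 passed the filter on low counts in every fit, although Ctsc and Ctss passed it in the glioma cells through libraries with few counts.

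The lysosome is the acidic compartment in which cells break down proteins, sugar chains and lipids. Soluble hydrolases do the cutting, and membrane proteins carry in protons and carry out the products. TFEB, TFE3 and MITF are related basic helix-loop-helix factors that bind an E-box motif near the start of many lysosomal genes, and they enter the nucleus when the kinase complex mTORC1 is inactive on the lysosomal surface. Microglia and macrophages are phagocytes whose lysosomes digest what they engulf.

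BV2 is an immortalised mouse microglial line, and GL261 is a mouse glioma line, here stably carrying the plasmid pEGFP-N1. Bone marrow-derived macrophages (BMDM) are primary cells from wild-type (WT) mice. The oxygen level was 21% in normoxia and below 0.1% in hypoxia, held for 16 h. They grew alone (monoculture) or in direct contact with the other cell type (co-culture), with 2 GL261 cells seeded for each BV2 cell or 1 for each BMDM. In a separate experiment, BV2 cells and BMDM without glioma cells were given 10 nM panobinostat, a histone deacetylase inhibitor, in hypoxia only, and were compared with cells given its solvent, dimethyl sulfoxide (DMSO), in either oxygen level. Serum was 2% for BV2 and 10% for BMDM, so that cell type and medium cannot be told apart between these 2. Groups held 2 libraries, except BMDM from co-culture, with 3 at each oxygen level. The labels call the BV2 and GL261 libraries biological replicates. For the others nothing says that they came from separate cultures or animals, and p-values then measure only the spread between these libraries, which may be technical.

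Libraries held 9634700 to 27238900 counts, so that 3 counts corresponded to between 0.110 and 0.311 CPM (counts scaled to the library total). A list of 8 microglia and macrophage markers summed to between 1240 and 2960 CPM in BV2 libraries, between 572 and 7510 in BMDM and at most 21.8 in GL261. A list of 7 glioma and neural markers summed to between 1590 and 2090 CPM in GL261, at most 41.8 in BV2 and between 73.4 and 373 in BMDM. Both ends of the BMDM range came from libraries with DMSO, without glioma cells. There Nes, Cspg4 and Ncam1 made up most of the sum and Sox2 and Olig1 stood at 0, so the sum does not mark glioma cells in BMDM. Transcripts of the partner made up 0.568 to 2.36% of co-cultured BV2 libraries, 0.219 to 0.915% of GL261 and 1.29 to 6.28% of BMDM. In bulk RNA, fewer cells of a type and less RNA per cell cannot be told apart. Levels are CPM scaled by trimmed-mean factors within a table of counts. Log2 changes come from fits with factors set over the libraries of that fit, mostly those of 1 cell type. A log2 change can therefore differ from the ratio of the levels printed beside it. A change is called when the adjusted p of edgeR's quasi-likelihood test, corrected over all genes tested by the Benjamini-Hochberg method, is under 0.05. The 3 tables, for BV2 with GL261, for BMDM and for the panobinostat experiment, were scaled separately, so that levels and changes were tested within a table only.

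In normoxic monoculture, most of the lysosomal genes stood at higher levels in the microglial line than in the glioma line. 37 of the 46 were higher in BV2, 5 were higher in GL261 (Ids, Hgsnat, Smpd1, Gm2a and Mcoln1), and 4 did not pass. These 42 are 91.3% of the list, against 73.2% of all 16882 genes tested (33.8% higher and 39.4% lower in BV2), and the median log2 difference, BV2 over GL261, was 1.57 for the list and -0.12 for all genes. Lipa, the acid lipase that frees cholesterol from its esters, stood at 513 and 610 CPM in BV2 and at 17.4 and 17.9 CPM in GL261 (log2 difference 4.99, SE 0.17, edgeR adjusted p = 9.8e-15). Both BV2 libraries lay far above both GL261 libraries. Ctsc, a peptidase that activates granule proteases of immune cells, had no count in any of the 4 GL261 monoculture libraries and 165 and 179 CPM in normoxic BV2. Against the floor of 3 counts per library, this is at least 1166-fold higher in BV2. Ctss, a protease that trims class II antigen presentation complexes, stood at 405 and 367 CPM in BV2 and had 0 and 2 counts in normoxic GL261. Ctsc and Ctss thus passed the filter on low counts through libraries other than the GL261 monocultures, and nothing is read from their part in the 37. In the other direction, Hgsnat, the transferase that acetylates heparan sulfate ends inside the lysosome, stood at 28.3 and 28.7 CPM in BV2 and 55.1 and 58.2 CPM in GL261 (log2 difference -0.99, SE 0.13, adjusted p = 1.55e-06). Gm2a, the activator that lifts gangliosides out of the membrane for cleavage, also stood lower in BV2, with no overlap, at a log2 difference of -0.82 (SE 0.15, adjusted p = 9.86e-05).

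Normoxic BV2 and BMDM given DMSO differed in 13 of the 46 genes, 4 higher and 9 lower in BV2. This is 28.3% of the list against 44.2% of the 15955 genes tested (17.1% higher and 27.1% lower). Ctsk, a collagen-cleaving cathepsin, had the largest difference, a log2 value of -5.74 for BV2 over BMDM (SE 0.52, edgeR adjusted p = 2.84e-05). It stood at 31.0 and 60.5 CPM in BMDM but at only 0.921 and 0.773 CPM in BV2, from 13 and 12 counts. The size of its difference thus rests on few counts in BV2. Smpdl3b, a membrane-anchored relative of acid sphingomyelinase, was higher in BV2, at 191 and 169 CPM against 22.4 and 25.6 CPM in BMDM (log2 difference 2.91, SE 0.76, adjusted p = 0.0119). Without replicate 1 of the BMDM 8 genes were called.

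Hypoxia raised most of the lysosomal genes in BV2 monocultures. 32 of the 46 rose and 5 fell (Ctsc, Gusb, Smpdl3b, Lamp1 and Tfeb), which is 80.4% of the list, against 61.9% of the 14432 genes tested (30.9% higher and 31.0% lower). The median log2 change was 0.63 for the list and 0.00 for all genes. Rises ran through every class of enzyme. Of the 7 glycosaminoglycan enzymes 6 rose and 1 fell, of the 7 sugar enzymes 6 rose and none fell, and of the 11 lipid genes 8 rose and 1 fell. Among membrane proteins 5 of 7 rose and 1 fell. Proteases were more mixed, with 5 of 11 rising and 1 falling. The 9 genes that did not pass were Ctsk, Ctsl, Ctss, Ctsz, Tpp1, Manba, Galc, Lipa and Scarb2.

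Among the enzymes of glycosaminoglycan breakdown, Hgsnat rose from 28.3 and 28.7 CPM in normoxia to 87.6 and 90.9 CPM in hypoxia (log2 change 1.53, SE 0.11, edgeR adjusted p = 1.04e-08). Gm2a rose from 62.8 and 64.5 to 239 and 241 CPM (log2 change 1.79, SE 0.13, adjusted p = 9.97e-09). Ctsf, a cysteine protease, rose from 14.8 and 17.1 to 50.1 and 62.3 CPM (log2 change 1.69, SE 0.13, adjusted p = 2.39e-08). In each of these 3 genes both hypoxic libraries lay above both normoxic ones, by far more than the gap between replicates. Replicates of this experiment were close, with a median ratio of replicate 1 to replicate 2 between 0.94 and 1.11 over the 46 genes in its 8 groups. The largest fall was that of Smpdl3b, from 123 and 141 to 47.1 and 43.9 CPM (log2 change -1.66, SE 0.12, adjusted p = 6.11e-09). Ctsc fell from 165 and 179 to 106 and 110 CPM (log2 change -0.80, SE 0.11, adjusted p = 9.67e-06). Lamp1, a heavily glycosylated protein that lines the lysosomal membrane, fell from 954 and 916 to 700 and 686 CPM (log2 change -0.55, SE 0.11, adjusted p = 0.000346). Its relative Lamp2, which also serves chaperone-mediated autophagy, rose from 304 and 338 to 615 and 674 CPM.

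**Figure D1:**
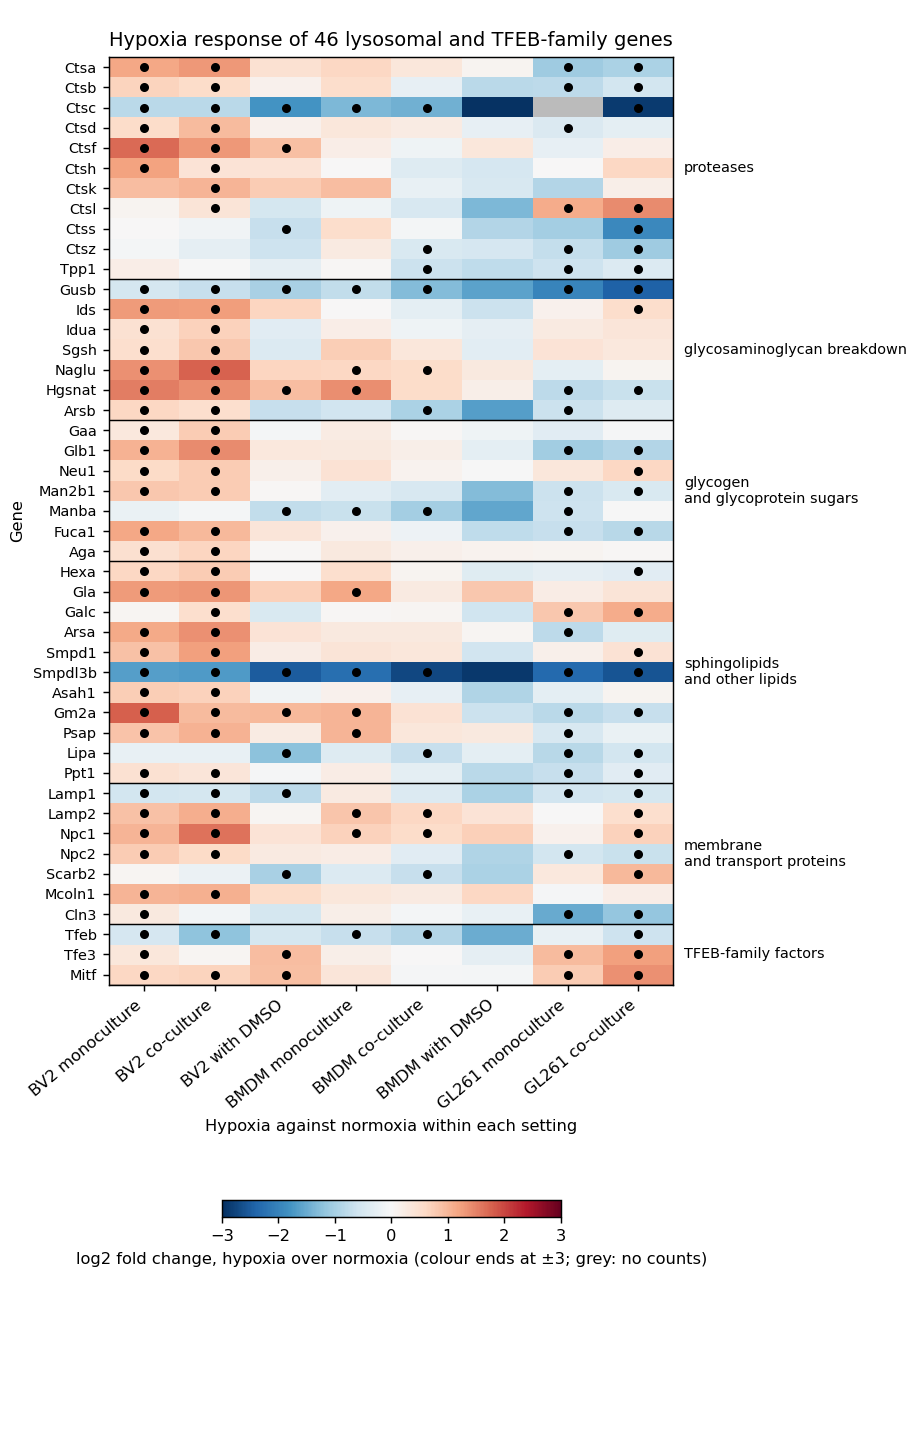
Log2 change in hypoxia of each of the 46 genes (rows, grouped by role) in the 8 comparisons of hypoxia with normoxia (columns), as colour from lower (blue) to higher (red). A dot marks an adjusted p under 0.05 and grey a gene with no counts in either group. The BV2 columns of the co-culture experiment hold 32 and 33 rises, the GL261 columns 21 and 20 falls. The 20 include Ctsc and Ctss, which passed the filter on low counts through the normoxic co-cultures.

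In BV2 cells from co-culture, 33 of the 46 genes rose in hypoxia and 5 fell, 82.6% of the list against 67.3% of all genes tested (35.2% higher and 32.1% lower). 30 rises and 5 falls were shared with the monoculture, and the overlap over all genes was not counted. Naglu, which removes N-acetylglucosamine from heparan sulfate, went from 54.9 and 52.6 to 211 and 198 CPM (log2 change 1.78, SE 0.11, adjusted p = 1.97e-09). Npc1, the cholesterol exporter of the lysosomal membrane, rose from 130 and 115 to 449 and 387 CPM (log2 change 1.62, SE 0.13, adjusted p = 2.02e-08). Glb1, the lysosomal beta-galactosidase, rose from 62.7 and 70.6 to 181 and 212 CPM (log2 change 1.41, SE 0.12, adjusted p = 4.13e-08). The hypoxic libraries lay above the normoxic ones in each. The share of GL261 transcripts in these libraries was 0.760 ± 0.271% in normoxia and 2.22 ± 0.205% in hypoxia (SD, n = 2 each). No gene of the list had a level in GL261 4 or more times that in BV2.

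The response to hypoxia differed between BV2 mono- and co-culture in 2 of the 46 genes by the interaction term, against 2.19% of all genes (1.16% more positive and 1.03% more negative in co-culture). Gm2a rose less in co-culture, from 76.0 and 96.2 to 168 and 200 CPM, with a difference of -0.85 on the log2 scale from the monoculture (SE 0.18, adjusted p = 0.0274). Ctsh, a cathepsin that trims the ends of peptides, stood at 52.6 and 52.2 CPM in normoxic and 135 and 128 CPM in hypoxic monoculture, and at 72.1 and 79.6 against 104 and 119 CPM in co-culture (difference -0.80, SE 0.16, adjusted p = 0.0232). In both genes the normoxic co-culture was above and the hypoxic co-culture below the matching monoculture. Leaving out either normoxic BV2 monoculture library, or replicate 2 of the normoxic co-culture, left neither call, and leaving out replicate 2 of the hypoxic monoculture gave 3.

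GL261 monocultures moved mostly in the opposite direction. 21 of the 46 genes fell in hypoxia and 4 rose (Ctsl, Galc, Tfe3 and Mitf), 54.3% of the list against 44.6% of the 15189 genes tested (23.2% higher and 21.4% lower). The median log2 change was -0.40 for the list and -0.03 for all genes. Falls were 5 of 11 proteases, 3 of 7 glycosaminoglycan enzymes, 4 of 7 sugar enzymes, 6 of 11 lipid genes and 3 of 7 membrane proteins. Smpdl3b fell from 16.5 and 16.2 to 3.89 and 2.55 CPM (log2 change -2.34, SE 0.22, edgeR adjusted p = 1.66e-05). Gusb, the beta-glucuronidase of glycosaminoglycan chains, fell from 96.2 and 93.7 to 27.2 and 21.6 CPM (log2 change -1.98, SE 0.16, adjusted p = 6.65e-06). Ctsa, the carboxypeptidase that protects beta-galactosidase and neuraminidase, fell from 125 and 134 to 58.8 and 66.1 CPM (log2 change -1.07, SE 0.12, adjusted p = 5.57e-05). The hypoxic libraries of these 3 genes all lay below the normoxic ones. Ctsl, a broad-acting cathepsin, rose from 188 and 171 to 398 and 391 CPM (log2 change 1.12, SE 0.13, adjusted p = 7.53e-05). Galc, which cleaves the myelin lipid galactosylceramide, rose from 8.46 and 10.6 to 19.2 and 14.4 CPM (log2 change 0.80, SE 0.19, adjusted p = 0.00518).

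In GL261 from co-culture with BV2, 20 of the 46 genes fell and 10 rose, 65.2% against 52.4% of all genes (26.8% higher and 25.6% lower). Of these, 16 falls and 4 rises were those of the monoculture, and the overlap over all genes was not counted. Ctsz, a carboxypeptidase, fell from 180 and 156 to 79.9 and 83.4 CPM (log2 change -1.06, SE 0.13, adjusted p = 4.66e-05), with no overlap. The drops in Smpdl3b (log2 change -2.59) and Gusb (-2.43) were called here too, as was the rise in Ctsl (1.41). Ctsc and Ctss, absent or nearly so from GL261 monocultures, were among the falls. Both passed the filter on low counts through the normoxic co-cultures, so nothing is read from their falls. Ctsc had 22 and 14 counts there and 2 and 3 in hypoxic co-culture, and Ctss had 74 and 39 against 23 and 8. BV2 transcripts made up 0.774 ± 0.200% of the normoxic and 0.238 ± 0.0262% of the hypoxic libraries (SD, n = 2 each). With the genes that were 4 or more times higher in BV2 than in GL261 dropped after the fit, 21 members were left, of which 7 rose and 6 fell. Without replicate 1 of the normoxic co-culture 16 genes were called, and without replicate 1 of the hypoxic co-culture 19. No gene of the list passed the interaction of hypoxia with co-culture in GL261, where edgeR called 0% of all genes. 3 genes of the list had an unadjusted p under 0.05 there, as did 1354 of the 15189 genes tested, and DESeq2 called 0 of the list.

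Whether the response differed between the microglial and glioma lines was tested in a fit of both. The effect of hypoxia in monoculture differed for 36 of the 46 genes, 33 with a more positive change in BV2 and 3 with a more positive change in GL261, which is 78.3% of the list against 37.4% of the 16882 genes tested (18.7% in either direction). The median difference, BV2 minus GL261, was 1.11 on the log2 scale for the list and 0.15 for all genes. 14 genes rose in BV2 and fell in GL261, which is 30.4% of the list against 3.28% of the 12792 genes tested in both lines. Each of the 14 had a difference past the threshold, which calls in opposite directions in the same libraries all but fix in advance. None of the list did the reverse, against 6.38% of those genes. The 14 were the proteases Ctsa, Ctsb and Ctsd, the glycosaminoglycan enzymes Hgsnat and Arsb, the sugar enzymes Glb1, Man2b1 and Fuca1, the lipid genes Arsa, Gm2a, Psap and Ppt1, and the membrane or transport genes Npc2 and Cln3. Gm2a had the largest difference, 2.69 (SE 0.22, adjusted p = 6.55e-08). It went from 62.8 and 64.5 to 239 and 241 CPM in BV2 and from 127 and 98.3 to 72.7 and 58.1 CPM in GL261. Hgsnat differed by 2.41 (SE 0.18, adjusted p = 3.81e-08), with GL261 libraries at 55.1 and 58.2 CPM in normoxia and 37.9 and 28.7 CPM in hypoxia. Ctsa differed by 2.34 (SE 0.17, adjusted p = 1.92e-08), with a rise from 856 and 834 to 2150 and 1980 CPM in BV2 beside the fall in GL261 given above. These 3 genes thus ended in hypoxia with the BV2 libraries above the GL261 libraries. Gm2a and Hgsnat had stood lower in BV2 at normoxia. The 3 genes with a more positive change in GL261 were Ctsl (-0.94, SE 0.17, adjusted p = 0.000275), Galc (-0.65, SE 0.21, adjusted p = 0.0184) and Tfe3 (-0.53, SE 0.17, adjusted p = 0.0216).

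**Figure D2:**
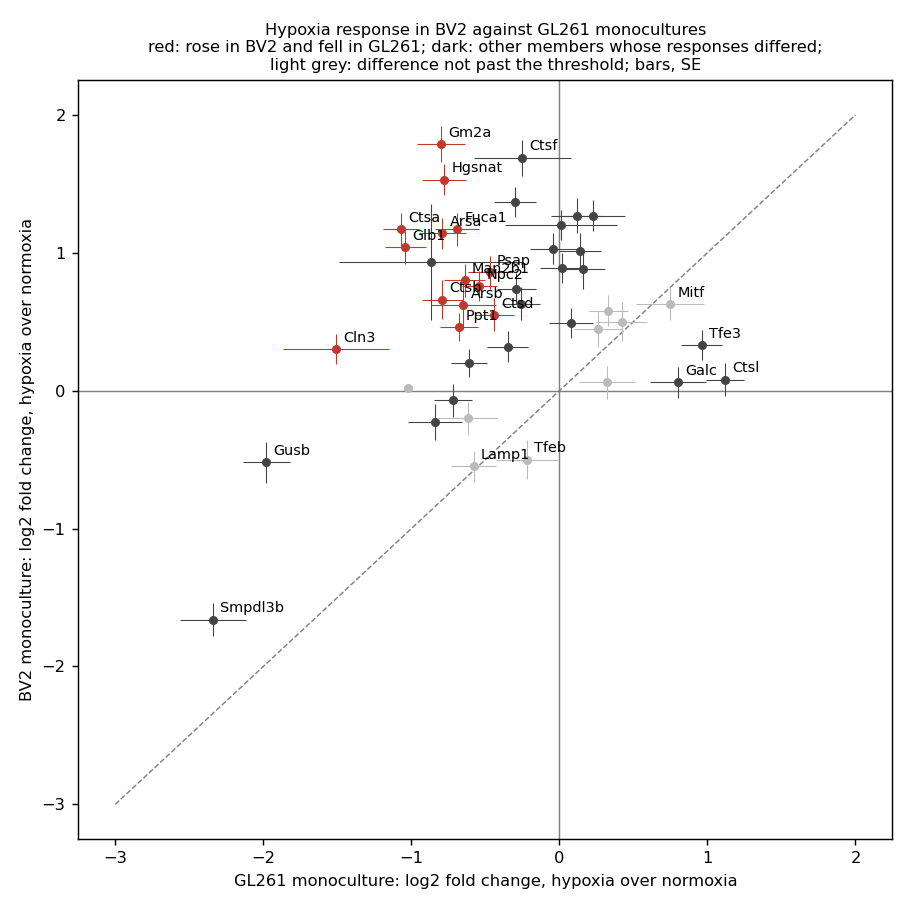
Log2 change in hypoxia in BV2 monoculture (vertical axis) against that in GL261 monoculture (horizontal axis), 1 point per gene with standard errors as bars and a dashed line of equal change. The 14 genes in red rose in BV2 and fell in GL261, and Smpdl3b and Gusb lie below 0 on both axes. Ctsc, with no counts in GL261 monocultures, is left out, and Ctss has no bars.

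Genes that moved together were set beside their promoters, taken as 250 bases before to 50 bases after the start. Of the 46 genes, 40 matched an entry of the RefSeq promoter table (build GRCm38.p6). The E-box core CACGTG, which reads the same on both strands and is the centre of the site that TFEB-family factors bind, was found in 14 of these 40 genes, 35%, against 8.09% of 27025 genes. The longer TCACGTG, on either strand, was found in 11 of the 40, 27.5% against 4.29% of genes. The CLEAR palindrome, the same core with GT before it and AC after it, was found in 1 gene, Cln3, 2.5% against 0.37%. The shorter ACGTG, the core of the hypoxia response element, is contained in CACGTG and was found in 17 genes, 42.5% against 21.8%. By call in BV2 monoculture, CACGTG was in 11 of the 26 genes that rose and had a promoter entry, in 2 of 5 that fell and in 1 of 9 that did not pass. By call in GL261 monoculture it was in 1 of 4 that rose, 7 of 19 that fell and 6 of 17 that did not pass. The motif thus stood before genes of either direction. A match is a description of letters, and no binding was measured.

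The stretches around the motif are shown for 9 genes whose values carry the comparisons, 5′ to 3′ on the strand of the gene, with CACGTG in capitals. Ctsa, Glb1, Arsa and Cln3 rose in BV2 and fell in GL261, and Cln3 holds the palindrome. Naglu, Mcoln1, Gla and Sgsh rose in BV2 and did not pass in GL261, and Lamp1 fell in both lines.
Ctsa, chr2:164833743-164833772, plus strand: gaacaatgagcaaactgtCACGTGatgcag
Glb1, chr9:114401003-114401062, plus strand: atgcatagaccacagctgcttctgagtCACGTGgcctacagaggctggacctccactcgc
Arsa, chr15:89477425-89477454, minus strand: cttcaactcagtgtCACGTGttgtctgctc
Naglu, chr11:101070009-101070038, plus strand: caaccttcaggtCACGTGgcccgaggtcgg
Mcoln1, chr8:3500462-3500491, plus strand: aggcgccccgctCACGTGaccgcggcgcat
Gla, chrX:134601182-134601211, minus strand: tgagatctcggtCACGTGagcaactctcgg
Sgsh, chr11:119355522-119355551, minus strand: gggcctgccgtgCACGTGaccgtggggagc
Lamp1, chr8:13159101-13159160, plus strand: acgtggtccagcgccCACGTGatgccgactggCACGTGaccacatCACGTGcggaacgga
Cln3, chr7:126583340-126583369, minus strand: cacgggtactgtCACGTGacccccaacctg
The motif begins 12 bases before the start of Ctsa, 16 before that of Arsa, 48 before that of Glb1 and 73 before that of Naglu. The Lamp1 promoter holds 4 copies before its start, 3 of them in the stretch shown, and Lamp1 fell in hypoxia in both lines. Mcoln1, the calcium channel of the lysosomal membrane, rose in BV2 from 32.5 and 34.0 to 71.1 and 76.8 CPM, and its GL261 libraries overlapped, at 48.2 and 48.2 CPM in normoxia and 39.5 and 55.9 CPM in hypoxia.

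The 3 factors themselves did not move as a block. Tfeb (ENSMUSG00000023990, chr17:47737030-47792419, plus strand, GRCm38) had a negative log2 change in all 8 comparisons of hypoxia with normoxia and was called lower in 5. In BV2 monoculture it fell from 34.6 and 32.7 to 28.6 and 23.2 CPM (log2 change -0.50), and in BV2 co-culture from 37.3 and 44.7 to 19.4 and 20.1 CPM (log2 change -1.21, SE 0.14, edgeR adjusted p = 1.88e-06). BMDM monocultures went from 102 and 109 to 64.8 and 66.3 CPM (log2 change -0.69, SE 0.22, adjusted p = 0.0405). BMDM co-cultures went from 102, 109 and 86.5 to 66.7, 39.4 and 56.0 CPM (log2 change -0.88, SE 0.18, adjusted p = 0.00336). GL261 fell only in co-culture by this test (log2 change -0.61, SE 0.22, adjusted p = 0.0335). The hypoxic libraries lay below the normoxic ones in each of these comparisons. In GL261 monoculture the groups overlapped, at 22.9 and 19.2 against 15.9 and 20.8 CPM (log2 change -0.22, adjusted p = 0.419). The interaction of hypoxia with co-culture was not called for Tfeb in any of the 3 cell types.

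Tfe3 (ENSMUSG00000000134, chrX:7762560-7775202, plus strand) rose in both lines of the first experiment. In GL261 monoculture it went from 27.0 and 27.0 to 58.4 and 48.4 CPM (log2 change 0.96, SE 0.14, adjusted p = 0.000327), and in GL261 co-culture from 23.4 and 24.6 to 62.9 and 52.2 CPM (1.24, SE 0.15, adjusted p = 4.26e-05). In BV2 monoculture the rise was smaller, from 69.2 and 67.1 to 96.4 and 90.4 CPM (0.33), and the difference between the lines passed the test, as given above. It did not pass in BV2 co-culture (0.07) or in BMDM (0.18 alone and 0.02 in co-culture). Mitf (ENSMUSG00000035158, chr6:97807052-98021349, plus strand) rose in BV2 monoculture from 55.3 and 66.3 to 99.2 and 106 CPM (0.63) and in BV2 co-culture from 46.9 and 44.5 to 84.2 and 76.2 CPM (0.66, SE 0.12, adjusted p = 0.000156). In GL261 it rose from 11.9 and 17.3 to 22.6 and 27.2 CPM alone (0.75, SE 0.23, adjusted p = 0.0220) and from 9.50 and 9.47 to 19.2 and 30.3 CPM in co-culture (1.36, SE 0.24, adjusted p = 0.000686). Hypoxic and normoxic libraries of Mitf did not overlap in either line. In BMDM its change was 0.36 alone and -0.04 in co-culture, and neither passed.

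**Figure D3:**
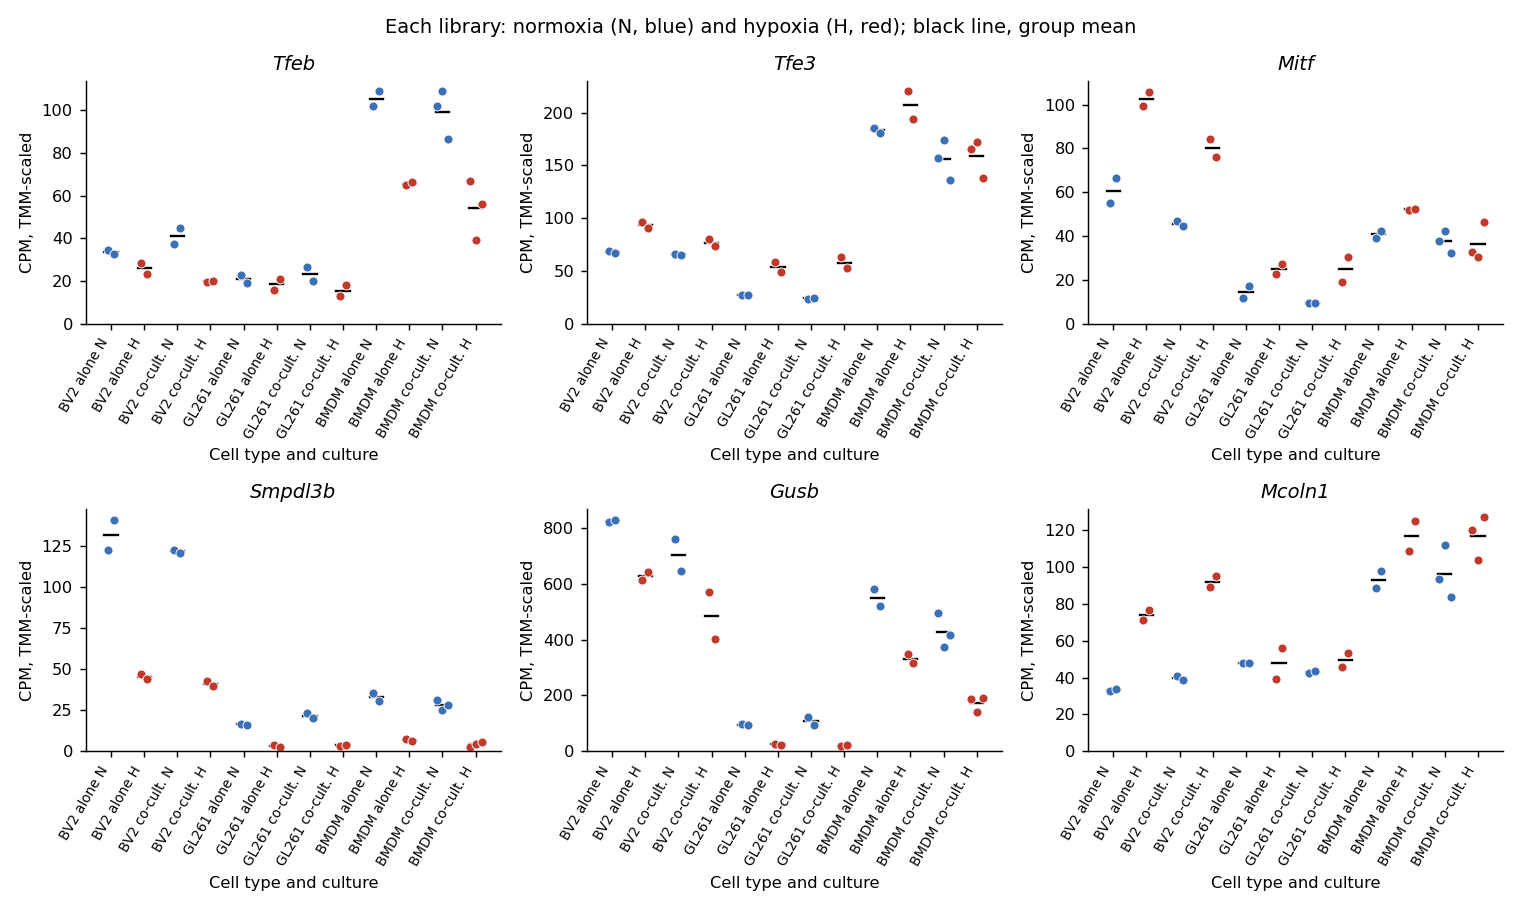
Level of Tfeb, Tfe3, Mitf, Smpdl3b, Gusb and Mcoln1 in each library of the mono- and co-cultures, in CPM, with normoxia in blue, hypoxia in red and a line at the group mean. Levels are comparable only among BV2 and GL261, or among BMDM, whose tables were scaled separately. Tfeb is lower in hypoxic BV2 and BMDM, while Tfe3 and Mitf are higher in hypoxic BV2 and GL261 monocultures.

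In BMDM monoculture 7 of the 46 genes rose in hypoxia (Naglu, Hgsnat, Gla, Gm2a, Psap, Lamp2 and Npc1) and 5 fell (Ctsc, Gusb, Manba, Smpdl3b and Tfeb), 26.1% of the list against 23.9% of the 14806 genes tested (13.3% higher and 10.6% lower), so that the share called was near that of all genes. Each of the 7 rises was also a rise in BV2 monoculture, where 69.6% of the list rose. Of the 5 falls, 4 were falls there too, where 10.9% of the list fell. The overlap over all genes was not counted. Hgsnat rose from 163 and 192 to 434 and 497 CPM (log2 change 1.39, SE 0.25, edgeR adjusted p = 0.00291). Gla, the alpha-galactosidase that is lost in Fabry disease, rose from 77.6 and 82.8 to 165 and 191 CPM (log2 change 1.15, SE 0.20, adjusted p = 0.00274). Gm2a rose from 242 and 234 to 508 and 465 CPM (log2 change 1.03, SE 0.23, adjusted p = 0.00898). None of these 3 overlapped between oxygen levels. Smpdl3b fell from 35.4 and 30.4 to 7.20 and 6.43 CPM (log2 change -2.27, SE 0.26, adjusted p = 0.000267). Ctsc fell from 247 and 154 to 78.7 and 78.1 CPM (log2 change -1.35, SE 0.29, adjusted p = 0.00771). The 12 calls became 4 or 5 when any 1 of the 4 libraries was left out, and 28 when the monoculture groups were fitted without the co-cultures.

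BMDM from co-culture showed 3 rises (Naglu, Lamp2 and Npc1) and 10 falls, 28.3% of the list against 34.8% of all genes (17.5% higher and 17.3% lower). Npc1 rose from 161, 145 and 123 to 221, 199 and 203 CPM (log2 change 0.54, SE 0.13, adjusted p = 0.00788), with no overlap. Lamp2 rose by a log2 value of 0.61 (SE 0.17, adjusted p = 0.0144) and Naglu by 0.55 (SE 0.15, adjusted p = 0.0150). Gusb fell from 495, 372 and 418 to 186, 142 and 190 CPM (log2 change -1.31, SE 0.16, adjusted p = 0.000174). Ctsc fell from 213, 190 and 236 to 70.4, 57.0 and 108 CPM (log2 change -1.44, SE 0.24, adjusted p = 0.00101). All hypoxic libraries of these genes were below all normoxic ones. Hypoxic co-culture replicate 2 was below replicate 1 in 42 of the 46 genes and below replicate 3 in 41, with GL261 transcripts at 3.74 ± 2.32% of the hypoxic and 2.43 ± 1.21% of the normoxic libraries (SD, n = 3 each); the part of these shares in the result was not tested. Without replicate 2 the calls were 10 rises and 7 falls. The interaction of hypoxia with co-culture was called for no gene of the list in BMDM, where edgeR called 0% of all genes. An unadjusted p under 0.05 was found for 9 genes of the list and for 636 of the 14806 genes tested, and DESeq2 called 0 of the list.

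Smpdl3b and Gusb were the 2 genes of the list that fell in hypoxia in all 3 monocultures, and none of the list rose in all 3. How many of all genes did so was not counted. Both were called lower in 7 of the 8 comparisons of hypoxia with normoxia, the exception being BMDM with DMSO. Smpdl3b (ENSMUSG00000028885, chr4:132732966-132757252, minus strand) fell in BV2 with DMSO from 191 and 169 to 22.5 and 42.2 CPM (log2 change -2.50, SE 0.29, adjusted p = 0.000341). In BMDM with DMSO it stood at 22.4 and 25.6 in normoxia and at 1.12 and 5.19 CPM in hypoxia (log2 change -2.90, SE 1.04, adjusted p = 0.161), which did not overlap but did not pass. Gusb (ENSMUSG00000025534, chr5:129989011-130003049, minus strand) fell in BV2 monoculture from 823 and 829 to 613 and 642 CPM. In BMDM with DMSO Gusb stood at 323 and 569 in normoxia and 59.4 and 222 CPM in hypoxia (log2 change -1.61, SE 0.90, adjusted p = 0.304). Manba, Lipa and Tfeb also had negative changes in all 8 comparisons, and Aga, Gla, Lamp2 and Npc1 positive ones, although not all of these passed. No 2 of the 8 comparisons share a library.

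The solvent-treated cells of the panobinostat experiment gave the hypoxia comparison again in separate libraries. In BV2 with DMSO, 5 of the 46 genes rose (Ctsf, Hgsnat, Gm2a, Tfe3 and Mitf) and 8 fell, 28.3% of the list against 37.5% of the 13294 genes tested (17.2% higher and 20.2% lower). The median log2 change was 0.04 for the list and -0.03 for all genes, where the BV2 monoculture gave 0.63 and 0.00. Of the 32 rises of the BV2 monoculture, 5 were called again, 27 were not called and none was called lower. Of its 5 falls, 4 were called again. Such repeats were not counted over all genes. Gm2a rose from 71.1 and 62.3 to 126 and 139 CPM (log2 change 0.97, SE 0.20, edgeR adjusted p = 0.00451), Hgsnat from 45.9 and 29.1 to 81.1 and 64.4 CPM (0.93, SE 0.26, adjusted p = 0.0191), and Tfe3 from 58.4 and 65.1 to 131 and 108 CPM (0.92, SE 0.20, adjusted p = 0.00603). Ctsc fell from 157 and 123 to 40.7 and 41.1 CPM (log2 change -1.80, SE 0.21, adjusted p = 0.00033). Lipa fell from 1020 and 467 to 358 and 278 CPM (-1.24, SE 0.34, adjusted p = 0.0178). In these 5 genes the oxygen levels did not overlap. Normoxic replicate 1 was above replicate 2 in 43 of the 46 genes, with a median ratio of 1.63, whereas the ratio was 0.99 in the untreated normoxic BV2 monocultures. The same was seen in 38 genes in hypoxia with DMSO (1.23) and in 40 with panobinostat (1.21). With a block for replicate number the calls were 21. Under it 9 of the 32 rises of the monoculture were called higher, 2 lower (Arsb and Cln3) and 21 neither, and all 5 falls were called lower. Leaving out hypoxic replicate 1 left 6 calls. Whether the response differed between the untreated and the solvent-treated cells was not tested, since their tables were scaled separately.

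In BMDM with DMSO, edgeR called no gene of the list in hypoxia, against 0.483% of the 14914 genes tested. 5 genes of the list had an unadjusted p under 0.05, as did 3786 of all the genes tested. DESeq2 called 3 of the list, all lower. The median log2 change was -0.48 for the list and -0.01 for all genes. Hypoxic replicate 2 was above replicate 1 in 38 of the 46 genes. The common coefficient of variation between replicates was 0.381 in this fit, against 0.096 in the BV2 fit of the first experiment. The summed macrophage markers were 7510 and 5060 CPM in the normoxic libraries, 1980 and 3470 CPM in the hypoxic ones and 572 and 1590 CPM with panobinostat, against 3890 to 7180 CPM in the BMDM of the co-culture experiment. Their part in the levels of lysosomal genes was not tested. With a replicate block 7 genes of the list were called, all lower. The share of all genes called by DESeq2 or with the block is not given. The interaction of hypoxia with cell type, BV2 against BMDM, was called for no gene of the list by edgeR, against 0.664% of all genes. An unadjusted p under 0.05 was found for 3 of the list and for 2974 of the 15955 genes tested, and DESeq2 called 1 of the list.

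The wider lysosomal machinery was read from lists of genes outside the 46, whose counts stand beside the shares of all genes called in hypoxic monoculture, 61.9% in BV2, 44.6% in GL261 and 23.9% in BMDM. All genes rose or fell in near equal shares, 30.9% and 31.0% in BV2, 23.2% and 21.4% in GL261, and 13.3% and 10.6% in BMDM. Of 19 subunits of the V-ATPase, the pump that acidifies the lysosome, 13 rose and 2 fell in hypoxic BV2 monoculture. Atp6v0d2 rose most (log2 change 1.67) and Atp6v0a2 fell most (-1.13). In GL261 monoculture 5 of 18 rose and 4 fell, and in BMDM monoculture 7 of 19 rose and none fell, with Atp6v1a at 1.15. Of 30 other lysosomal proteins, 17 rose and 3 fell in BV2. In GL261 2 of these 30 rose and 10 fell, with Prcp, a carboxypeptidase, at -1.25. Of the genes of nutrient signalling to TFEB, 11 of 22 rose and 6 fell in BV2, 10 of 23 rose and 4 fell in GL261, and 8 of 24 rose and 1 fell in BMDM. Fnip1, the partner of folliculin, was the largest rise of that list in all 3 monocultures, at 1.59, 1.51 and 1.20. Of 11 genes that sort enzymes to the lysosome, 2 rose and 3 fell in both BV2 and GL261. In BMDM monoculture Cln8 of these rose (0.86) and Sort1 fell (-1.28), and Scpep1 of the other lysosomal proteins rose (1.15). Among cathepsin inhibitors, Cst7 fell in BV2 (-0.90) and Cst3 in GL261 (-1.12).

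A set of enzymes stood lower in BV2 grown in contact with glioma cells. In normoxia 9 of the 46 genes were lower in co-culture than in monoculture and 2 were higher (Ctsh and Ctsz), 23.9% of the list against 14.9% of all genes tested (5.77% higher and 9.14% lower). In hypoxia 12 were lower and 2 higher (Ctsd and Neu1), 30.4% against 15.7% (8.13% higher and 7.57% lower). The median log2 differences were -0.15 in normoxia and -0.14 in hypoxia, against -0.02 and 0.00 for all genes. Sgsh, Arsb, Man2b1 and Mitf were lower at both oxygen levels. Sgsh, the sulfamidase of heparan sulfate, stood at 25.0 and 29.4 CPM alone and 10.7 and 13.0 CPM in co-culture in normoxia (log2 difference -1.28, SE 0.15, edgeR adjusted p = 8.39e-05). In hypoxia it stood at 40.4 and 43.0 against 25.7 and 21.0 CPM (-0.95, SE 0.14, adjusted p = 0.000258). Co-cultured libraries were thus below monocultures at both oxygen levels. Arsb, which removes sulfate from dermatan and chondroitin sulfate, stood at 169 and 170 against 103 and 95.9 CPM in normoxia (-0.86, SE 0.17, adjusted p = 0.00457) and at 264 and 305 against 195 and 118 CPM in hypoxia (-0.98, SE 0.17, adjusted p = 0.000813). Glb1 was lower in normoxic co-culture (-0.52, SE 0.12, adjusted p = 0.00936) and Scarb2, the receptor that carries glucocerebrosidase to the lysosome, in hypoxic co-culture (-0.54, SE 0.12, adjusted p = 0.00667).

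All 3 factors were lower in hypoxic co-cultured than in hypoxic monocultured BV2, Tfeb by a log2 difference of -0.51 (SE 0.15, adjusted p = 0.0263), Tfe3 by -0.40 (SE 0.11, adjusted p = 0.0188) and Mitf by -0.47 (SE 0.12, adjusted p = 0.0110). Only Mitf passed in normoxia (-0.50, SE 0.12, adjusted p = 0.0121). Among the higher genes, Ctsh differed by 0.45 and Ctsz by 0.42 in normoxia, and Ctsd and Neu1, a neuraminidase, each by 0.37 in hypoxia. Of the 75-base words in Ctsd transcripts, 31.3% also occur in Gm49369, a gene that overlaps it on the same strand, so its count is uncertain. GL261 transcripts were at most 2.36% of these libraries. With genes 4 or more times higher in GL261 dropped after the fit, the calls were 11 in normoxia and 12 in hypoxia. In normoxia the 11 calls became 2 without replicate 2 of the monoculture or replicate 1 of the co-culture, and 3 without replicate 2 of the co-culture. In hypoxia the 14 calls became 7 without replicate 2 of the co-culture.

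**Figure D4:**
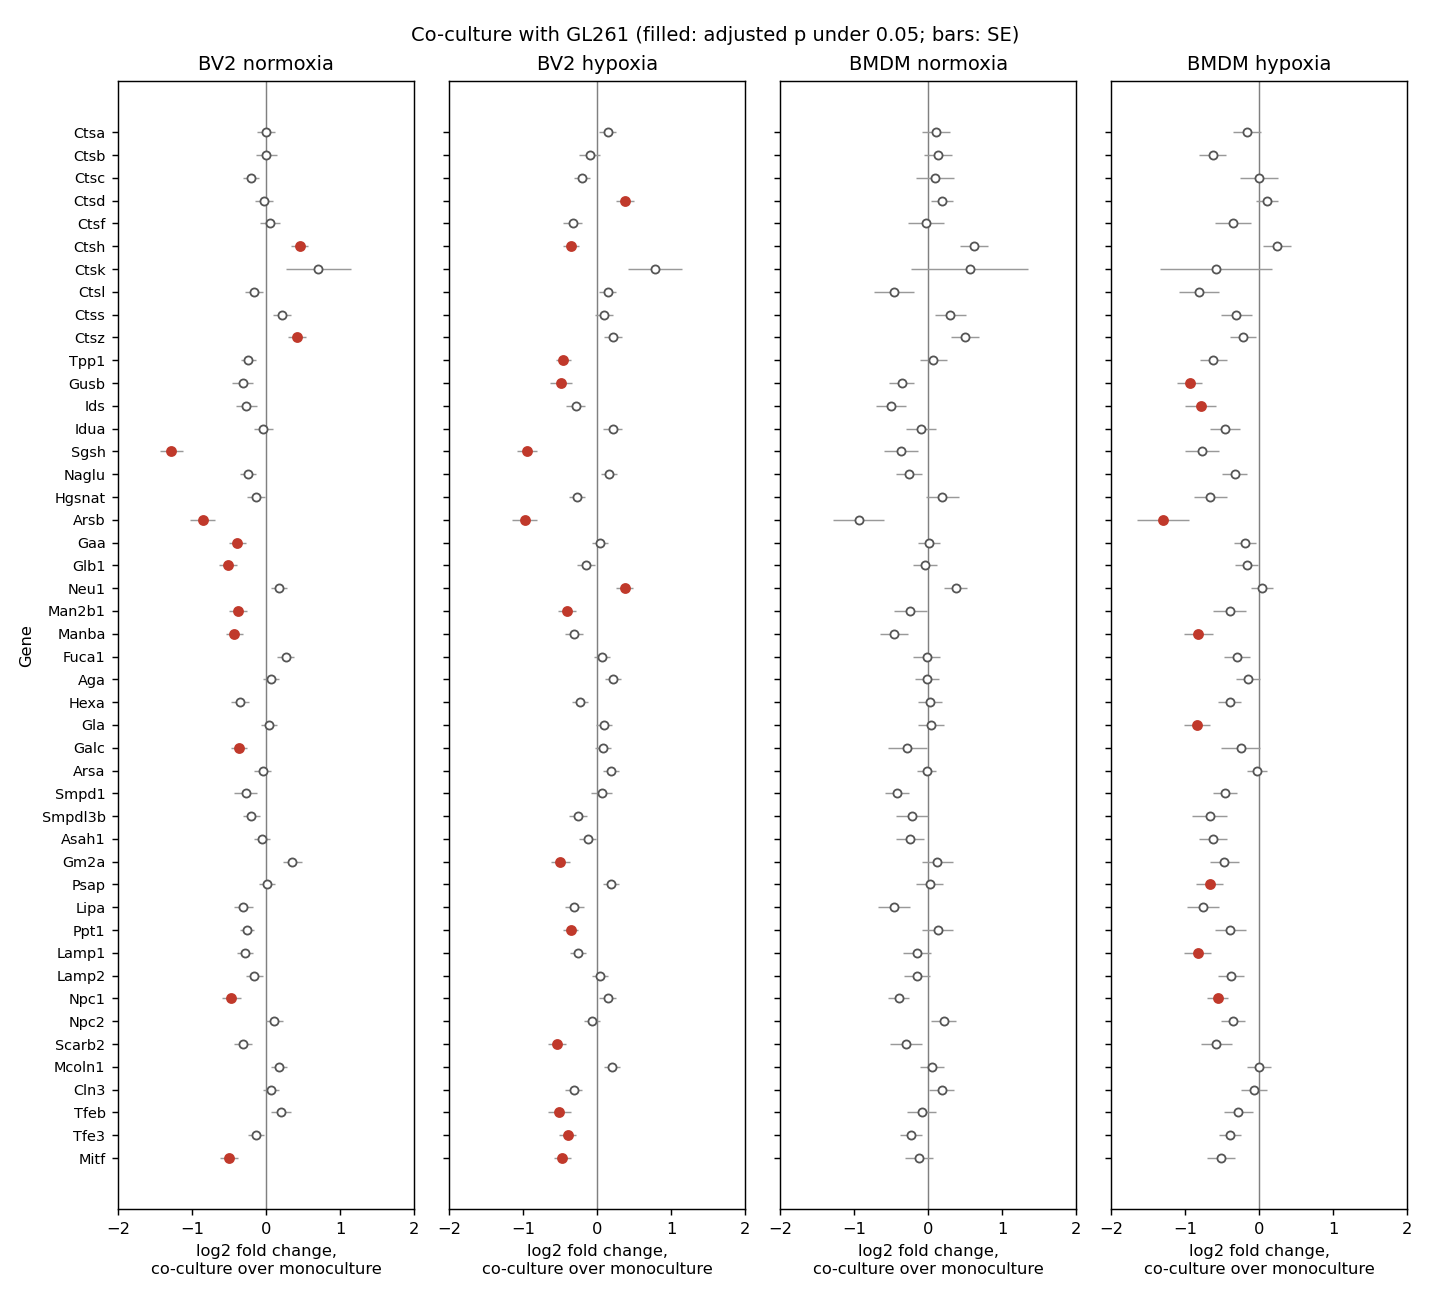
Log2 difference between co-culture and monoculture (horizontal axes) for each of the 46 genes in BV2 and BMDM at each oxygen level, with bars for the standard error and filled points for an adjusted p under 0.05. BV2 has 9 lower genes in normoxia and 12 in hypoxia, and BMDM 8 lower genes in hypoxia only.

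In normoxic GL261, Ctsc and Ctss were the 2 genes of the list called higher in co-culture with BV2, and none was lower (4.35% of the list, with 0.514% of all genes called, 0.323% higher and 0.191% lower). Both passed the filter on low counts through the co-cultured libraries, so nothing is read from this share. Ctsc had 22 and 14 counts in the co-cultures and 0 in both monocultures, at least 7.11-fold higher against the floor of 3 counts per library. Ctss had 74 and 39 counts against 0 and 2. BV2 transcripts were 0.774 ± 0.200% of these libraries, and that share of the BV2 level would give 1.59 and 1.10 plain CPM of Ctsc where 1.43 and 0.864 were measured, and 3.57 and 2.46 of Ctss where 4.80 and 2.41 were measured. In hypoxia, with a share of 0.238 ± 0.0262%, edgeR called none of the 46, against 1.39% of all genes. There 8 of the list and 2282 of the 15189 genes tested had an unadjusted p under 0.05, and DESeq2 called 3 of the list. Among the genes less than 4 times higher in BV2 than in GL261, 29 members were tested in normoxia and 23 in hypoxia, and none was called.

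BMDM in normoxia gave no call in co-culture against 1.64% of all genes by edgeR. An unadjusted p under 0.05 was found for 8 genes of the list and for 1905 of the 14806 genes tested, and DESeq2 called 0 of the list. In hypoxia 8 genes were lower in co-culture (Gusb, Ids, Arsb, Manba, Gla, Psap, Lamp1 and Npc1) and none higher, 17.4% of the list against 7.11% of all genes (4.06% higher and 3.05% lower). The median log2 difference was -0.40 for the list and 0.01 for all genes. Arsb stood at 44.7 and 58.9 CPM alone and at 30.9, 16.5 and 16.0 CPM in co-culture (log2 difference -1.30, SE 0.35, edgeR adjusted p = 0.0481). Gusb stood at 348 and 315 against 186, 142 and 190 CPM (-0.94, SE 0.17, adjusted p = 0.0133). Gla stood at 165 and 191 against 120, 78.2 and 102 CPM (-0.84, SE 0.18, adjusted p = 0.0226). In all 3 genes every co-cultured library was below both monocultures. GL261 transcripts were 3.74 ± 2.32% of the co-cultured libraries, and no gene of the list had a level in GL261 4 or more times that in BMDM. With the genes that were that much higher in GL261 dropped after the fit, 2 of the 46 were called, Gusb and Gla. Only the adjustment of p changed by this, not the fit. DESeq2 called 14 genes, and an edgeR fit of these 2 groups alone called 0. The 8 calls became 0 without either monoculture library, 14 without co-culture replicate 1, 3 without replicate 2 and 2 without replicate 3.

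Panobinostat in hypoxic BV2 changed 3 of the 46 genes, 6.52% of the list against 14.6% of all genes tested (7.21% higher and 7.39% lower). Fuca1, the alpha-fucosidase, rose from 91.9 and 83.8 CPM with DMSO to 202 and 158 CPM (log2 change 1.02, SE 0.22, edgeR adjusted p = 0.0161). Gm2a rose from 126 and 139 to 274 and 254 CPM (log2 change 0.98, SE 0.20, adjusted p = 0.0129). Hgsnat fell from 81.1 and 64.4 to 45.2 and 32.8 CPM (log2 change -0.91, SE 0.26, adjusted p = 0.0449). The treated and solvent libraries did not overlap in any of the 3. Gm2a and Hgsnat were also the genes with the largest rises in hypoxia with DMSO, a comparison that shares the hypoxic DMSO libraries. Gm2a thus went from 71.1 and 62.3 CPM in normoxia to its highest level with hypoxia and panobinostat, whereas Hgsnat stood at 45.9 and 29.1 CPM in normoxia and again near there with the drug. The factors did not pass, with log2 changes of -0.35 for Tfeb, -0.53 for Tfe3 and 0.08 for Mitf. No gene was called when either treated library was left out, and a replicate block gave 13. Tfec, a further member of the factor family that stood on the nutrient signalling list, fell (log2 change -2.24).

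In hypoxic BMDM, panobinostat gave no call among the 46 and 0% of all 14914 genes by edgeR. 15 genes of the list had an unadjusted p under 0.05, as did 3868 of all the genes tested. DESeq2 called 8 of the list, all lower, and a replicate block gave 7, all lower. The share of all genes called is not given for either. The median log2 change was -0.63 for the list and -0.03 for all genes. Hgsnat stood at 128 and 346 CPM with DMSO and at 22.9 and 62.0 CPM with panobinostat (log2 change -2.51, SE 0.69, edgeR adjusted p = 0.0980). Naglu stood at 153 and 121 against 53.6 and 64.0 CPM (-1.24, SE 0.23, adjusted p = 0.0644). Gla stood at 118 and 94.6 against 37.5 and 35.2 CPM (-1.57, SE 0.22, adjusted p = 0.0565). These genes did not overlap between treatments, and none passed. Both treated libraries lay below both solvent libraries in 23 of the 46 genes and above in 2. Such separation was not counted over all genes. Gm2a overlapped, at 42.5 and 215 against 41.6 and 254 CPM. The summed macrophage markers were lower with the drug in BMDM, as given above. In hypoxic BV2 they also summed to less, 2220 and 2030 CPM with DMSO against 1440 and 1240 CPM with panobinostat. Single markers went either way there. Csf1r stood at 741 to 778 CPM with DMSO and 230 to 256 CPM with the drug, and Adgre1 at 10.9 to 14.6 and 28.5 to 48.3 CPM. The interaction of drug and cell type was called for none of the 46 by edgeR, against 0.0251% of all genes. An unadjusted p under 0.05 was found for 8 of the list and for 1793 of the 15955 genes tested. DESeq2 called 0 of the list, so that the effects in BV2 and BMDM were not shown to differ.

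**Figure D5:**
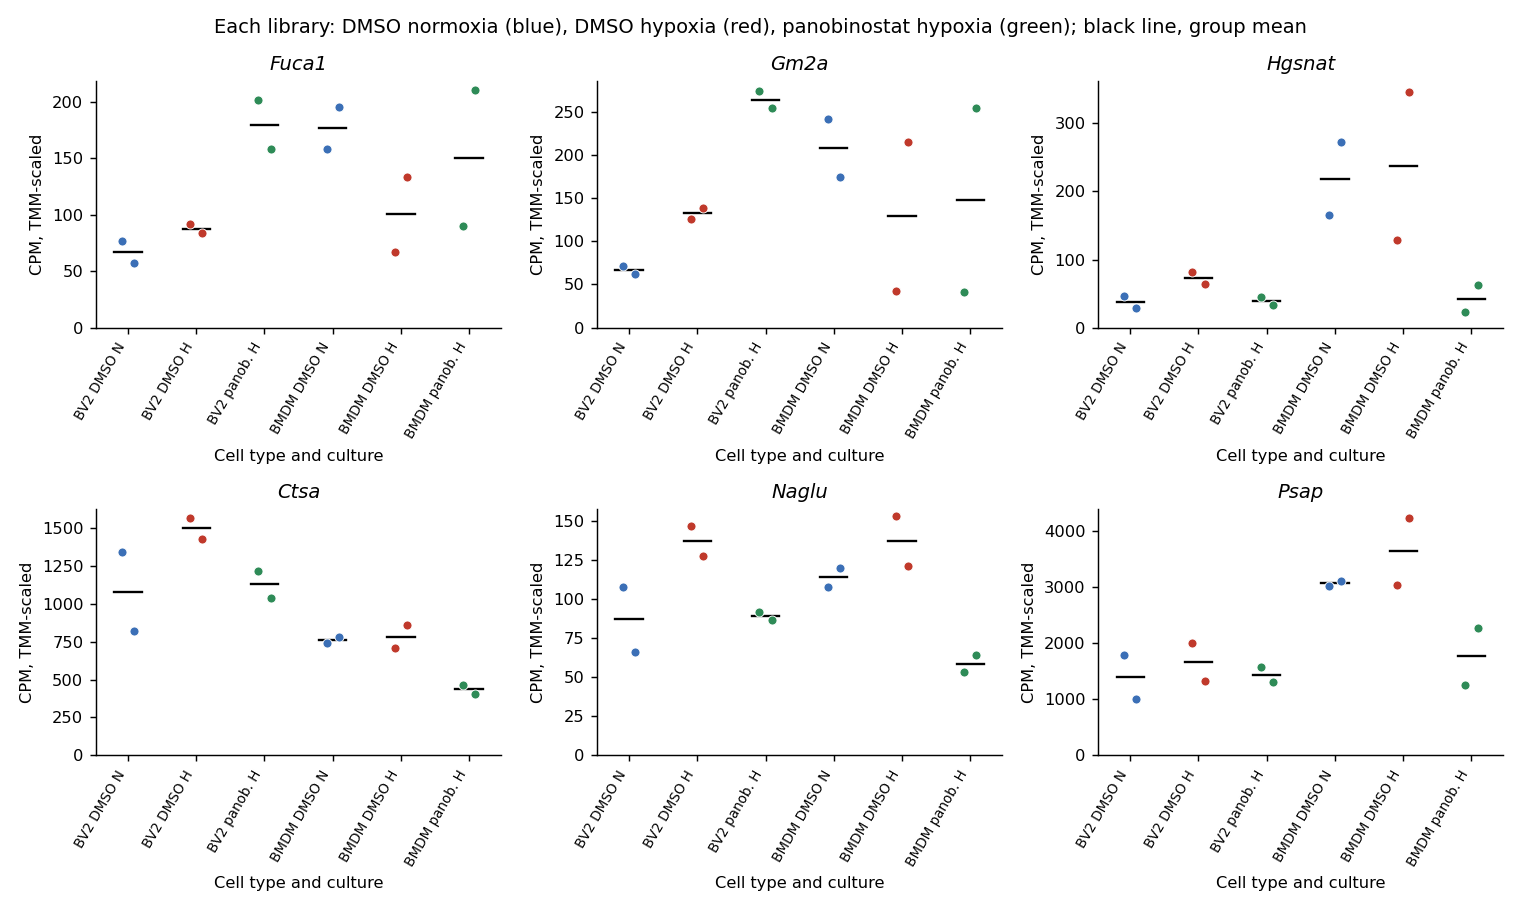
Level in each library of the panobinostat experiment of 6 genes, in CPM, in normoxia with DMSO (blue), hypoxia with DMSO (red) and hypoxia with panobinostat (green), with a line at the group mean. In BV2, Gm2a and Fuca1 are highest and Hgsnat lower with the drug, and the BMDM replicates lie further apart than those of BV2.

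Some counts are uncertain for reasons of gene structure. Ctsl shares 5.22% of its 75-base words with Gm49230, and Glb1 2.99% with Tmppe. Ctsa overlaps Neurl2 and Pltp on the opposite strand, Ctsb overlaps Fdft1, Idua overlaps Slc26a1, Sgsh overlaps Card14, Lamp1 overlaps Grtp1 and Cln3 overlaps Apobr. The library kit keeps strand, but whether counting used it is not given in the sources used here, so reads of such pairs cannot be told apart.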

How the data were processed

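The authors deposited 3 tables of raw read counts per Ensembl gene, with 1 column per library and no normalization. Poly(A) RNA of cells fixed in glyoxal was made into stranded libraries and read in pairs, per the labels' protocols. Trimmomatic 0.36, STAR 2.6, HTSeq 0.9.1, Picard 2.17.1 and the build mm10 are named in the submitters' processing notes, without roles or settings. How co-cultured cells were separated is not given in the sources used here. Counts were used as deposited, and intervals or floors from them cover counting error only, since no molecular identifiers are named. None of the 22 pairs of replicates was identical, and each differed beyond sampling noise (chi-square over its degrees of freedom 6.12 to 141).

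All genes of a table were tested in edgeR 4.0.16 (R 4.3.3) by quasi-likelihood, after TMM scaling and its filter on low counts (minimum count 10, minimum total 15), with p-values adjusted by the Benjamini-Hochberg method. A fit took in every group that a cell type had in a table, and differences between cell types were tested in a fit of the whole table. The standard error (SE) is the log2 change divided by the square root of F. The code was tested on simulated data. DESeq2 1.42.0, the low-count filter, size factors, fits of 2 groups, a replicate block and leaving out each library were alternatives.

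The members and gene lists were chosen with earlier results of these data known. Named with values are the 3 factors, the 3 largest called rises and falls per comparison at a mean log2 CPM of at least 3, genes called the same way in all 3 monocultures or in opposite ways in 2 cell types, and examples of a role. Of other lists the largest called rise and fall may be named. Mcoln1, Lamp2, the genes in the promoter paragraph and those given for panobinostat in BMDM were picked as examples after their values were seen.

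The partner's share of a library is the median, over genes with at least 20 plain CPM in the partner's monoculture and at least 100-fold more there (0.5 CPM added), of the level over that in the partner. For BMDM the GL261 levels came from another table, scaled separately. Gene positions are those of GENCODE M21 on GRCm38, and promoters are RefSeq's.

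Replicate numbers come from the titles, and no label says that they mark a shared culture or day. Deviations from group means correlated by 0.46, 0.24 and 0.41 between same-numbered BMDM libraries of normoxic and hypoxic co-culture, which may mark pairing. The values given for them are from the fit without a block, which called 13 of the 46 genes. With the block 15 were called. The GL261 share rose in the same replicate order, 1.29, 2.29 and 3.70% in normoxia and 1.72, 3.22 and 6.28% in hypoxia. Its part in the correlation was not tested.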

Additional observations from a re-analysis of the deposited data

Results flagged for a closer look

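The response to hypoxia differed between BV2 and GL261 monocultures for 36 of the 46 genes by the interaction test of edgeR. The largest positive differences, BV2 minus GL261 on the log2 scale, were 2.69 for Gm2a, 2.41 for Hgsnat and 2.34 for Ctsa. The negative ones were -0.94 for Ctsl, -0.65 for Galc and -0.53 for Tfe3. Leaving out 1 library at a time gave between 31 and 34 genes.

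Within BV2 the response to hypoxia differed between mono- and co-culture for 2 genes by the same kind of test, Gm2a at -0.85 and Ctsh at -0.80, co-culture minus monoculture on the log2 scale. Leaving out 1 of the 8 BV2 libraries at a time gave between 0 and 3 genes.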

How the results depend on the processing

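Over all alternatives, 199 of the counts of called genes stayed within 1.5 times their main value and 53 did not. The shares of all genes called under the alternatives are not given here, so these counts are not read against a background. Of the single-gene values, 2595 kept direction and side of the threshold, 343 lost the call and none that was called changed sign. DESeq2 called 3 genes in hypoxic BMDM with DMSO, 3 in GL261 co-culture against monoculture in hypoxia, 14 in that comparison of BMDM, 6 with panobinostat in BV2, 8 with it in BMDM, 4 for the interaction of hypoxia and co-culture in BV2 and 1 for the difference between BV2 and BMDM in the response to hypoxia with DMSO. Without the low-count filter there were 1, 1 and 3 calls for hypoxia in BMDM with DMSO, hypoxic GL261 co-culture and panobinostat in BMDM. Fits of 2 groups gave 28 calls for hypoxia in BMDM monoculture, 0 for co-culture in hypoxic BMDM and 9 for panobinostat in BV2. Genes high in the partner were dropped after the fit, which changed only the adjustment of p for the genes kept. There were then 0 calls for co-culture in normoxic GL261 and 2 for co-culture in hypoxic BMDM. The same for hypoxia in co-cultured GL261, chosen after seeing the data, gave 13 calls. With a replicate block there were 21 calls for hypoxia in BV2 with DMSO, 7 in BMDM with DMSO, 3 for co-culture in hypoxic GL261, 13 for panobinostat in BV2, 7 for it in BMDM and 3 for BV2 against BMDM in hypoxia with DMSO. Same-numbered libraries correlated on average by 0.03 in BV2, 0.18 in GL261, 0.15 in BMDM, 0.30 in BV2 and 0.45 in BMDM of the panobinostat experiment, with the lowest value in that experiment at 0.15. With 2 libraries a group both pairs of a comparison give 1 and the same value, so pairing could not be settled for the panobinostat experiment. For BMDM co-culture the data may hold pairing, but the main fit did not use it. Leaving out 1 library at a time gave 16 to 23 calls for hypoxia in co-cultured GL261, 4 to 5 in BMDM alone, 11 to 18 in co-cultured BMDM, 6 to 16 in BV2 and 0 to 1 in BMDM with DMSO. For co-culture it gave 2 to 9 in normoxic and 7 to 14 in hypoxic BV2, 0 to 1 in GL261 at either oxygen level, and 0 to 1 in normoxic and 0 to 14 in hypoxic BMDM. It gave 0 to 2 for panobinostat in BV2, 0 to 3 for the interaction in BV2, 0 to 1 for BV2 against BMDM in hypoxia and 8 to 10 in normoxia. The cause of these shifts was not tested.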
